A study of Homo sapiens with 2 samples.

Results

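The centromere and kinetochore genes described here are 39 protein-coding genes that build the centromere, load its histone, or form the kinetochore. They were listed by name, not by any measured value, and all 39 were found among the 20098 protein-coding genes (38690 genes with lncRNAs) of the annotation used. MYBL2 binding was profiled in untreated wild-type A673, a long-established line from Ewing sarcoma, by chromatin immunoprecipitation and sequencing (ChIP-seq). The series holds 2 libraries from these cells, 1 immunoprecipitated with a rabbit monoclonal antibody against MYBL2 (directed at phosphorylated, activated MYBL2 per the study's methods) and 1 input library of sheared chromatin. With 1 library per group there was no replicate, so no value has a replicate error and no difference between conditions was tested.

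The centromere is marked by nucleosomes that carry CENPA, a variant of histone H3. On it sits the constitutive centromere-associated network, a set of CENP proteins that stays on the chromosome through the cell cycle and holds the outer kinetochore, whose NDC80 complex grips spindle microtubules in mitosis. Many of these genes are transcribed late in the cell cycle, when MYBL2, a MYB family transcription factor, acts together with the MuvB complex. MuvB contacts DNA through the cell cycle genes homology region (CHR), a short element near the transcription start site (TSS) of late cell cycle genes.

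A gene was taken as bound when at least 1 base of a deposited peak lay within 1000 bp of any of its annotated TSSs. Fold enrichment is the authors' linear ratio of ChIP signal to local background at the peak summit. The number of ChIP fragments over the summit (the pileup) and the background, in fragments scaled from the input, were recovered from the deposited values, and each interval is a 95% Poisson interval of the pileup that covers counting error only. The list held 66954 peaks with a median pileup of 20 fragments and a median fold enrichment of 3.79. Its background had a floor of 3.45 fragments, which corresponds to about 56800000 ChIP reads if the smallest peak width, 164 bp, is the fragment length.

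All 39 genes had a promoter peak, against 59.4% of protein-coding genes and 41.9% of all genes. All 39 also had one with a fold enrichment of at least 5 (49.6% of protein-coding genes), and 31 of 39 (79.5%) had one of at least 10 (23.1% of protein-coding genes). The 39 genes are a named list and not random draws, so these shares carry no interval. The yes or no measure could therefore not separate these genes from each other, and the strength and place of the best peak (that with the largest fold enrichment) is described instead. The 39 best peaks were 39 different peaks.

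Over the 39 genes, fold enrichment at the best promoter peak ranged from 5.39 to 41.1 with a median of 13.3, beside 8.67 over the 11941 bound protein-coding genes. Fold enrichment lay above that coding median in 33 of the 39 genes and above the coding upper quartile, 12.1, in 22. It reached 20 in 9 genes (23.1%), beside 6.33% of bound coding genes. The pileup had a median of 67 fragments (range 23 to 198), beside 43 for bound coding genes, while the median background was 3.90 and 3.73 fragments. In the order of fold enrichment, the intervals of all 38 neighbouring pairs overlapped, so adjacent ranks were not resolved, while those of the strongest and weakest peaks were far apart. The interval lay wholly above the coding median in 23 genes, included it in 15 and lay below it only at CENPB. These interval counts were made for the 39 genes only, so no share of bound coding genes stands beside them.

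**Figure D1:**
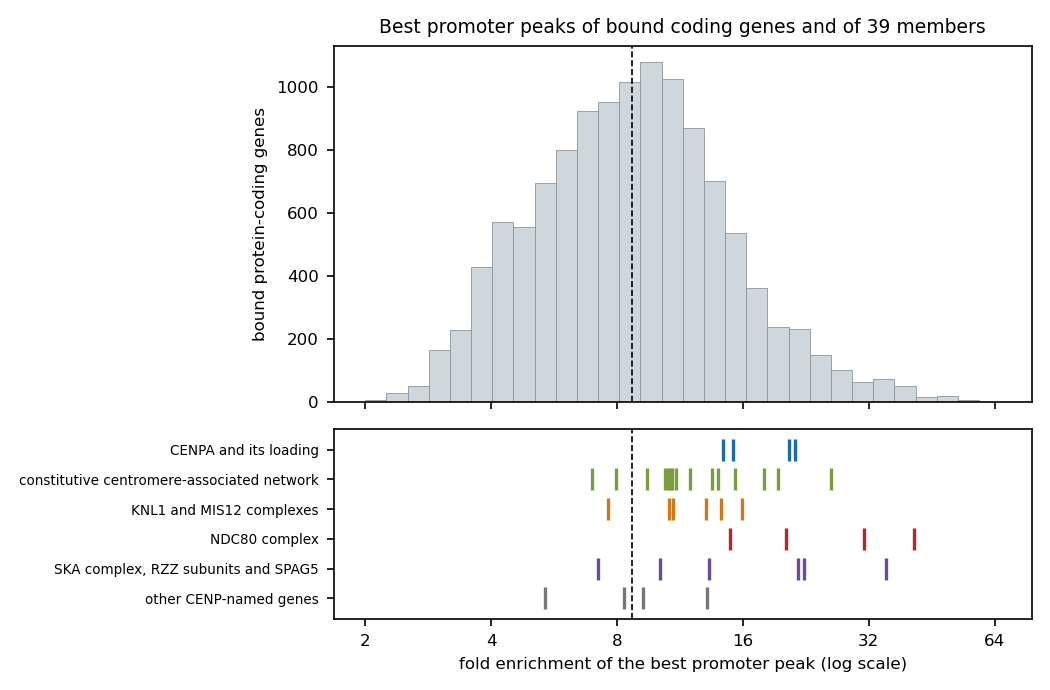
The upper panel is a histogram of the fold enrichment (log scale) of the best promoter peak in 11941 bound protein-coding genes, with their median of 8.67 as a dashed line, and in the lower panel each tick is 1 of the 39 centromere and kinetochore genes by role. Of the 39 ticks, 33 lie to the right of the line, and all 4 genes of the NDC80 complex do.

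The 4 subunits of the NDC80 complex, the microtubule-binding part of the outer kinetochore, held the strongest and the third strongest of the 39 peaks. At SPC25, on chromosome 2 (169746500 to 169747283), 182 ChIP fragments lay over the summit against a background of 3.45, a fold enrichment of 41.1 (interval 35.4 to 47.5) that ranked 40 among all peaks and exceeded 99.6% of bound coding genes. NDC80 itself, on chromosome 18 (2570951 to 2572063), had 176 fragments against 4.67, or 31.2-fold (interval 26.8 to 36.2). NUF2, its partner in the coiled-coil dimer, had 127 fragments against 5.29 on chromosome 1 (163291119 to 163292315), or 20.3-fold (interval 17.0 to 24.2). SPC24, which pairs with SPC25, had 71 fragments against 3.82 on chromosome 19 (11266134 to 11267068), or 14.9-fold (interval 11.7 to 18.8). The intervals of SPC25 and SPC24, 2 subunits that form a dimer, did not overlap.

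The SPC25 and NUF2 peaks depend on which TSSs are counted. The annotation gives each of these genes an outlying TSS, and with only the outermost TSS NUF2 had no promoter peak and the best SPC25 peak had a fold enrichment of 3.59. The summits of all 4 genes lay within 100 bp of a TSS, and in NDC80, SPC24 and SPC25 that was the TSS of the canonical transcript.

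Of the SKA complex, which keeps kinetochores attached to the ends of microtubules, SKA3 stood apart. It had 198 fragments against 4.66 on chromosome 13 (21749699 to 21752132), the largest pileup of the 39 genes, and a fold enrichment of 35.1 (interval 30.4 to 40.4). SKA1 had 64 fragments against 3.90 on chromosome 18 (47900892 to 47901837), or 13.3-fold (interval 10.3 to 16.9). SKA2 had 55 against 4.51 on chromosome 17 (57231597 to 57234032), or 10.2-fold (interval 7.70 to 13.2), in the widest of the 39 peaks, 2436 bp. The interval of SKA3 overlapped neither of the others.

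The RZZ complex brings dynein and checkpoint proteins to kinetochores that lack microtubules. Its subunits ZWILCH and ZW10 had close values. For ZWILCH the pileup was 105 fragments against 3.73 on chromosome 15 (66796017 to 66797966), or 22.4-fold (interval 18.4 to 27.1), and for ZW10 it was 110 against 4.13 on chromosome 11 (113644178 to 113644859), or 21.6-fold (interval 17.8 to 26.0). SPAG5 (astrin), a spindle and kinetochore protein, had a high background of 7.46 fragments under its 60 ChIP fragments on chromosome 17 (26925687 to 26926467), and its fold enrichment of 7.21 (interval 5.53 to 9.24) was below the coding median.

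CENPA and its loading factors all lay above the coding upper quartile. The CENPA peak on chromosome 2 (27008117 to 27010064) had 94 fragments against 3.45, a fold enrichment of 21.3 (interval 17.3 to 26.1). With only the outermost TSS, which lies far upstream, the best CENPA peak was another one with a fold enrichment of 8.45, which was also at the promoter of SLC35F6. OIP5, a subunit of the Mis18 complex that licenses the centromere for new CENPA, had 91 fragments against 3.45 on chromosome 15 (41624342 to 41625804), or 20.7-fold (interval 16.7 to 25.3). Its partner MIS18A had 80 against 4.66 on chromosome 21 (33650738 to 33651691), or 14.3-fold (interval 11.4 to 17.8). HJURP, the chaperone that deposits CENPA, had 67 against 3.49 on chromosome 2 (234762203 to 234763812), or 15.2-fold (interval 11.8 to 19.2). The 4 intervals overlapped each other.

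The 15 genes of the constitutive network had a median of 11.1-fold and ranged from 6.96 to 26.1. CENPT, the histone-fold protein that ties the network to the NDC80 complex, was highest, with 115 fragments against 3.45 on chromosome 16 (67880127 to 67881591) and an interval of 21.6 to 31.2. Next came CENPL on chromosome 1 (173793028 to 173794573; 19.4-fold, 109 fragments against 4.67, interval 15.97 to 23.4) and CENPN on chromosome 16 (81040203 to 81041440; 17.97-fold, 79 against 3.45, interval 14.3 to 22.3). These proteins bind each other, and CENPN reads the CENPA nucleosome. CENPS, a histone-fold protein, had 73 fragments against 3.82 on chromosome 1 (10490213 to 10491327), or 15.3-fold (interval 12.1 to 19.2). CENPO had 89 against 6.53 on chromosome 2 (25015604 to 25016739), or 12.0-fold (interval 9.63 to 14.7). CENPK had 52 against 3.78 on chromosome 5 (64858269 to 64859536), or 11.1-fold (interval 8.34 to 14.5), and CENPP had 57 against 4.34 on chromosome 9 (95087454 to 95088575), or 10.9-fold (interval 8.26 to 14.0). CENPO and CENPP belong to the same subcomplex, and their intervals overlapped. CENPW (13.9-fold) and CENPU (13.5-fold) lay between CENPS and CENPO, and CENPC, CENPH and CENPM lay between 10.4 and 10.8.

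The lowest of the network were CENPQ (9.42-fold, 45 fragments against 3.89, interval 6.92 to 12.5), CENPI (7.95-fold, 41 against 4.28, interval 5.76 to 10.7) and CENPX (6.96-fold, 30 against 3.45, interval 4.77 to 9.85). Their peaks lay on chromosome 6 (49430741 to 49431373), chromosome X (100352595 to 100353615) and chromosome 17 (79980983 to 79981566). CENPX is a histone-fold partner of CENPS, whose interval it did not reach. CENPT and CENPW, which form a dimer, also had intervals that did not overlap, 21.6 to 31.2 and 10.8 to 17.7. By contrast, CENPH, CENPI, CENPK and CENPM, which form another subcomplex, lay close together, from 7.95 to 11.1, with overlapping intervals.

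The KNL1 and MIS12 complexes join the network to the outer kinetochore, and all 6 of their genes listed here had exactly 1 promoter peak. MIS12 was highest, with 87 fragments against 4.51 on chromosome 17 (5389743 to 5390408), or 15.96-fold (interval 12.8 to 19.6). NSL1 had 72 against 4.16 on chromosome 1 (212964269 to 212965734) (14.1-fold, interval 11.1 to 17.8) and ZWINT, a binding partner of KNL1, had 57 against 3.45 on chromosome 10 (58120449 to 58121742) (13.03-fold, interval 9.92 to 16.8). DSN1 had 54 against 4.04 on chromosome 20 (35401503 to 35402937) (10.9-fold, interval 8.25 to 14.2). KNL1, the scaffold that checkpoint kinases phosphorylate, had 52 against 3.98 on chromosome 15 (40885976 to 40886895) (10.6-fold, interval 8.003 to 13.9). PMF1 had as many ChIP fragments as NSL1, 72, but the highest background of the 39 genes, 8.60 fragments, on chromosome 1 (156182374 to 156183565), and its fold enrichment was 7.61 (interval 5.97 to 9.55).

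The other 4 CENP-named genes lie outside the complexes above and had a median of 8.76-fold. CENPF, a large outer kinetochore and nuclear envelope protein, had 110 fragments against 7.46 on chromosome 1 (214776066 to 214777364), or 13.1-fold (interval 10.8 to 15.8). CENPV, on chromosome 17 (16255122 to 16257059), gave 9.21-fold (40 fragments against 3.45, interval 6.64 to 12.5) and CENPJ, which encodes a centriole assembly protein, on chromosome 13 (25496659 to 25497513), gave 8.31-fold (36 against 3.45, interval 5.89 to 11.4). CENPB, which binds a sequence box in centromeric satellite DNA, had the weakest peak of all 39 genes, on chromosome 20 (3767278 to 3767585), with 23 fragments against 3.45, or 5.39-fold (interval 3.50 to 7.98). It was also the narrowest, at 308 bp, beside a median width of 1136 bp for the 39 genes and 865 bp for bound coding genes.

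**Figure D2:**
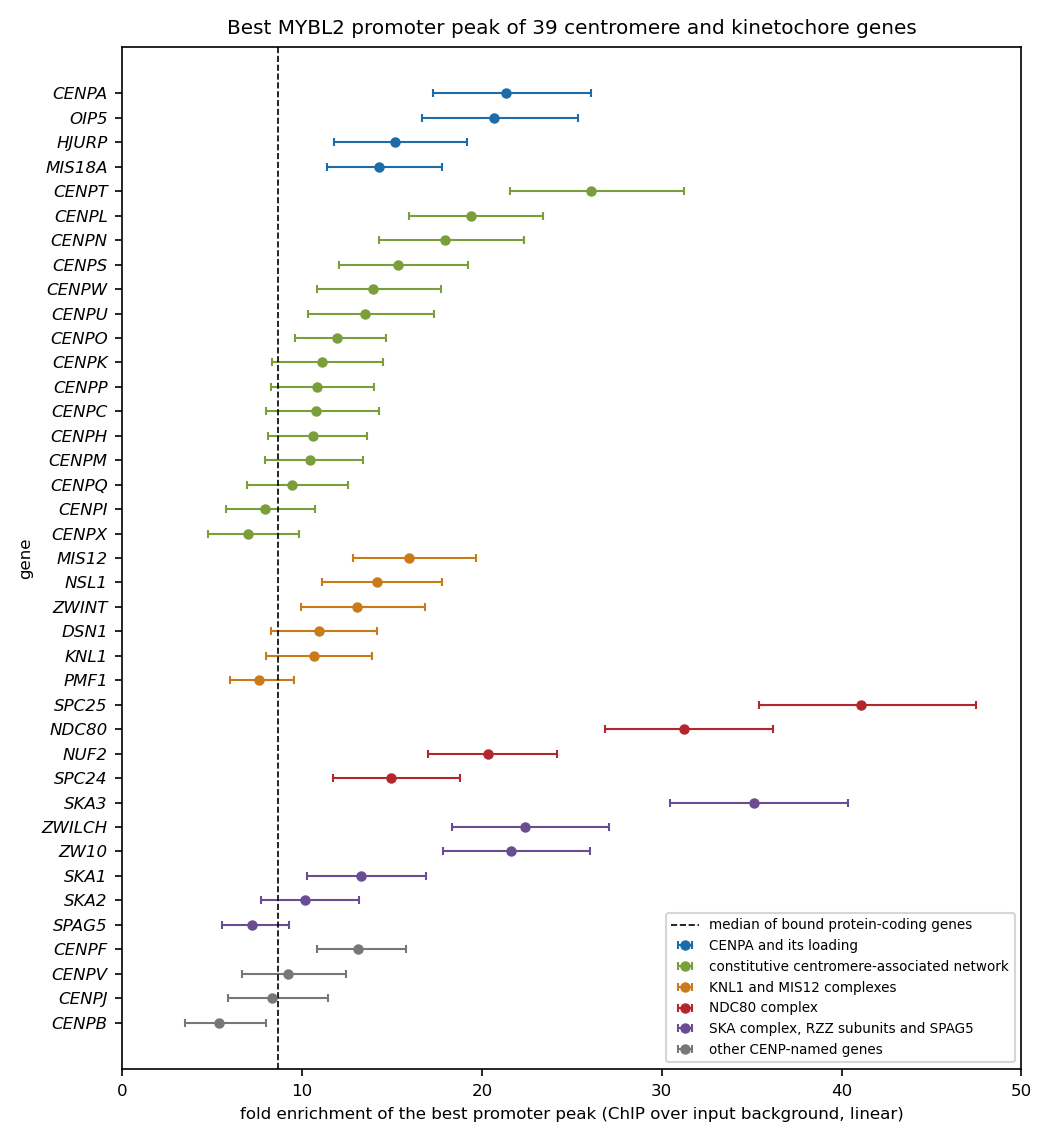
Each dot is the fold enrichment (linear axis) of the best promoter peak of 1 of the 39 genes, grouped by role, with its 95% Poisson interval as a bar, and the dashed line is the median of bound protein-coding genes, 8.67. SPC25 (41.1), SKA3 (35.1) and NDC80 (31.2) lie farthest to the right, and CENPB (5.39) is the only gene whose bar ends left of the line.

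The summits lay close to start sites. Their median distance to the nearest TSS of the gene was 29 bp, beside 73 bp for bound coding genes, and 31 of 39 (79.5%) lay within 100 bp, beside 58.6%. The nearest of several TSSs is a generous measure, with a median of 6 TSSs per gene here and 7 per bound coding gene. Measured to the canonical TSS, a comparison added after the values were seen, the medians were 44 and 126 bp, and 28 of 39 genes lay within 100 bp, beside 44.3% of bound coding genes. In the canonical transcript, 17 summits lay upstream, 13 in the 5′ UTR, 6 in a coding exon and 3 in an intron, counted for the 39 genes only. The farthest summits from an own TSS were those of CENPP (618 bp upstream), CENPX (348 bp upstream) and OIP5 (325 bp upstream). At CENPX the best peak (6.96-fold) was hardly stronger than a second one (6.76-fold) that covered its own TSS.

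**Figure D3:**
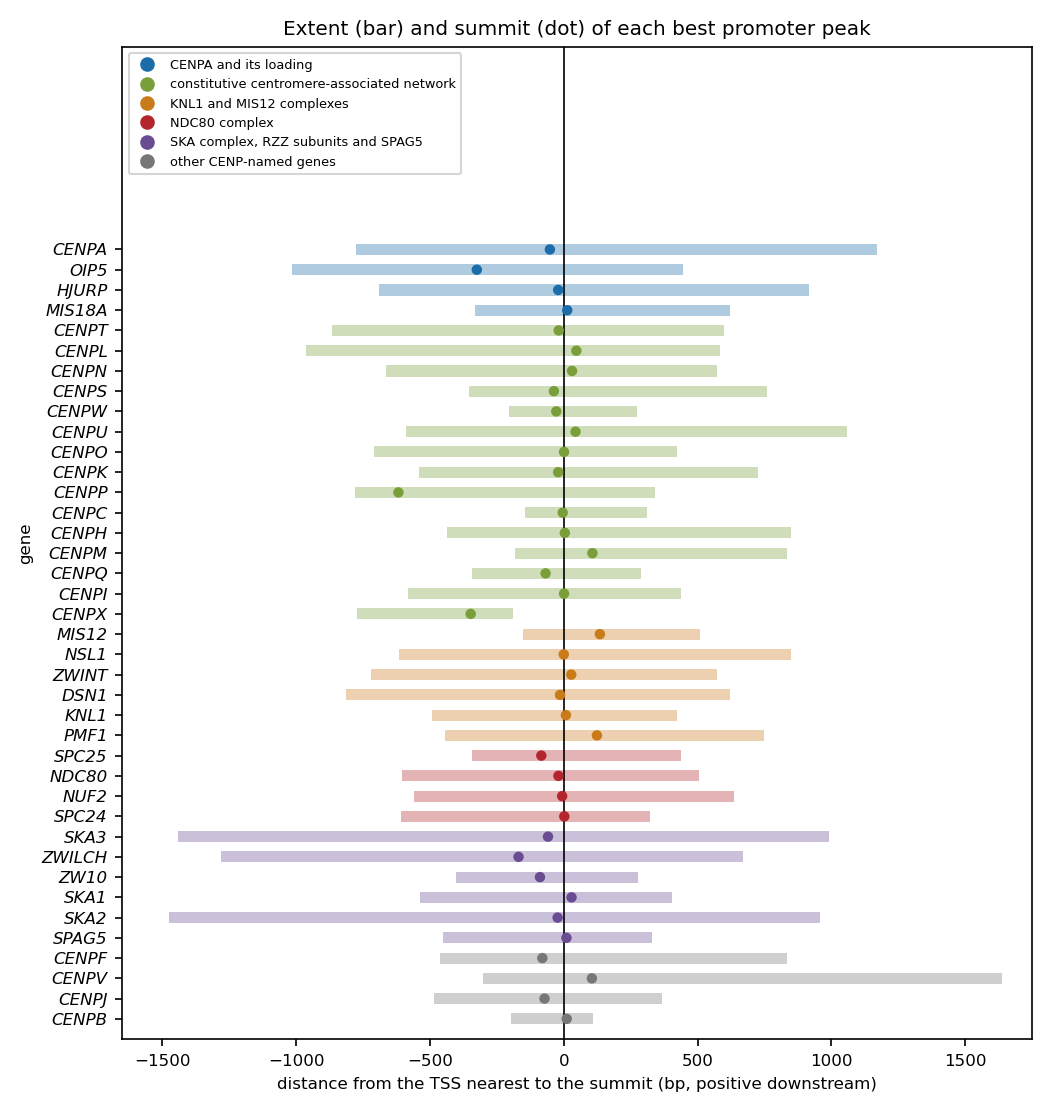
Each bar is the extent of the best promoter peak of 1 gene in bp from the TSS nearest to its summit (positive downstream), and the dot is the summit, coloured by role. Of the 39 dots, 31 lie within 100 bp of 0, and CENPP, CENPX and OIP5 lie farthest upstream.

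CENPP, CENPX and OIP5 share their promoter with a neighbour. Altogether 19 of the 39 best peaks (48.7%) also lay in the promoter window of another protein-coding gene, beside 30.7% over bound coding genes. In 17 genes (43.6%, beside 24.7% of bound coding genes) that neighbour lies on the other strand, and in 15 of them the canonical TSSs lay 34 to 760 bp apart. For 7 genes (17.9%, beside 15.6%) the summit was nearer to a TSS of another coding gene than to one of its own. The OIP5 summit was 3 bp from a TSS of NUSAP1, a microtubule-binding spindle protein, and the CENPP summit was 1 bp from one of NOL8. The CENPX summit was 39 bp from LRRC45, the ZWILCH summit 37 bp from RPL4, a ribosomal protein gene, and the SKA3 summit 47 bp from MRPL57 (59 bp from SKA3). At CENPQ the distances were 68 bp and, to MMUT, 49 bp, and at MIS12 they were 135 bp and, to DERL2, 99 bp. The peak list cannot tell apart binding for one gene of such a pair and for the other.

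In the other opposite-strand pairs the summit was nearer to the member. NDC80 and METTL4 have canonical TSSs 52 bp apart, and the summit lay 20 bp and 28 bp from a TSS of each. The same held for CENPK with PPWD1, CENPN with CMC2 (and the unnamed gene ENSG00000286221), CENPO with PTRHD1, CENPT with NUTF2, NSL1 with TATDN3 and SKA2 with PRR11, where the summit was 23 bp from SKA2 and 515 bp from PRR11. NUF2 with RGS5 and CENPB with CDC25B met only at alternative TSSs of the neighbour. CENPS and PMF1 shared their peaks with their own readthrough genes, CENPS-CORT and PMF1-BGLAP. The 19 genes that shared a peak had a median fold enrichment of 15.3 (range 5.39 to 35.1) and the 20 that did not had 13.1 (range 7.21 to 41.1), so the ranges overlapped over most of their length.

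Of the 4 motifs sought, the CHR element differed most in frequency from other bound genes. It was sought as TTTGAA or TTCGAA on either strand (the second reads the same on both). Within 50 bp of the TSS nearest to the summit it was present in 14 of 39 genes (35.9%), beside 3.32% of bound coding genes in windows of the same length. These were CENPA, OIP5, CENPI, CENPM, CENPN, CENPO, CENPW, KNL1, ZWINT, NDC80, SPC25, SKA1, SKA3 and SPAG5, of which 12 had TTTGAA and 3 had TTCGAA. Around the summit instead of the TSS, also within 50 bp, it was present in 8 of these 14 genes and in no other of the 39 (20.5%, beside 3.93%). The 3 genes with the strongest peaks, SPC25, SKA3 and NDC80, each had TTTGAA centred at -0.5 bp from the TSS (negative is upstream), so that the element spanned the start site. The elements are shown in their own orientation, with 1 CHR of each gene in capitals. Those shown are from the 3 strongest peaks and from every role but the other CENP-named genes. The next strongest peaks, CENPT, ZWILCH and ZW10, had no CHR within 50 bp of the TSS. Elements of CENPI, CENPN, CENPW, ZWINT and SPAG5 are not shown. The NDC80 sequence also holds a TTCGAA in lower case, next to the TTTGAA and centred 5.5 bp downstream of the TSS. Positions are on GRCh37, which has the coordinates of the authors' hg19.

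SPC25 (chr2:169746932-169746961, minus strand): ggcgggaagtgcactaggTTTGAAatcgga
SKA3 (chr13:21750671-21750700, plus strand, opposite to the gene): acagcctcccgccactagTTTGAAtctcgg
NDC80 (chr18:2571547-2571576, minus strand, opposite to the gene): ccgccaaagccgttcgaaTTTGAAattctc
CENPA (chr2:27008888-27008917, plus strand): agtgggcggagcgagcgaTTTGAAcgcgag
OIP5 (chr15:41624777-41624806, minus strand): ggcggggcctggcgtgtaTTCGAAaggaag
CENPM (chr22:42343120-42343149, minus strand): gggctggactcagggcggTTTGAAagatcg
CENPO (chr2:25016312-25016341, plus strand): gggaccggttggtttggtTTTGAAgacgtg
KNL1 (chr15:40886432-40886461, plus strand): atcacctaggcggttagaTTTGAAtacttc
SKA1 (chr18:47901432-47901461, plus strand): ctagggcgcggcgggcggTTTGAAttttgc

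Peak strength with and without the element was close among the 39 genes. The 14 genes with it at the TSS had a median of 13.6-fold (range 7.21 to 41.1) and the other 25 had 13.1-fold, beside 10.4-fold and 8.65-fold for bound coding genes. The TTTGAA at the TSS was centred 83.5 bp from the summit at SPC25 and 58.5 bp from it at SKA3, but 19.5 bp from it at NDC80. The SPC25 summit lay 84 bp and the SKA3 summit 59 bp upstream of the TSS, and that of NDC80 20 bp upstream. OIP5 had, beside the element at its own TSS, others within 50 bp of the summit, at the NUSAP1 end of the shared promoter.

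The CCAAT box, bound by the trimeric factor NF-Y in many cell cycle promoters, was sought as CCAAT on either strand. It was within 50 bp of the summit in 9 of 39 genes (23.1%, beside 10.0% of bound coding genes), namely CENPA, CENPC, CENPF, CENPK, CENPQ, CENPX, SPC25, SKA2 and ZW10. Within 50 bp of the TSS it was in 8 genes (20.5%, beside 9.92%). A CHR element and a CCAAT box were together in 0 of the 39 summit windows (0.645% of bound coding genes), and 17 genes had one or the other (43.6%, beside 13.3%). In 3 genes (7.69%, beside 1.33% of bound coding genes with at least 2) the window held a pair of CCAAT boxes, 32 bp apart at SPC25, 26 bp apart at CENPK and 36 bp apart at CENPF. They are shown in the gene's orientation for the part of the window outside annotated exons, with CCAAT (or its reverse complement ATTGG) in capitals.

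SPC25 (chr2:169746974-169747038, minus strand): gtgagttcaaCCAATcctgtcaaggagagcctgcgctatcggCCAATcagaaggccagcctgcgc
CENPK (chr5:64858996-64859062, minus strand): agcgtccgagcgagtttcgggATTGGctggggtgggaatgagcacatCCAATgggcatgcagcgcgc
CENPF (chr1:214776398-214776498, plus strand): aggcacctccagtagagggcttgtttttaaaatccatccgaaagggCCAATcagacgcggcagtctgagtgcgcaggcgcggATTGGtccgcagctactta

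At SPC25 one box was centred 2 bp upstream of the summit and the other 30 bp downstream of it, with the CHR element farther downstream at the start site, 83.5 bp from the summit. One CCAAT box of CENPF was likewise centred 2 bp upstream of its summit. The E2F site, sought on either strand as TTCCCGC and its variants, namely TTCGCGC as well as TTGCCGC and also TTGGCGC, was at 7 of 39 summits (17.9%, beside 8.93%), those of HJURP, CENPH, CENPL, CENPO, CENPS, CENPX and ZW10. At ZW10 it shared 4 bases with a CCAAT box on the other strand. Around the TSS it was in 9 genes (23.1%, beside 8.07%), and at SPC25 it was centred 17 bp upstream of the start site, within the sequence shown above.

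The MYB site, the motif of the MYB family itself, had shares close to those of bound coding genes, above or below them with the window. Sought as CAACNG or TAACNG on either strand, it was at 7 of 39 summits (17.9%), those of CENPH, CENPO, CENPP, CENPW, KNL1, NUF2 and SKA1, beside 17.6% of bound coding genes. Around the TSS it was in 8 genes (20.5%, beside 17.6%), and within 100 bp of the summit in 12 (30.8%, beside 31.4%). At KNL1 it was centred at -25.5 bp and the CHR element at -17.5 bp from the TSS, and both are in the sequence shown. None of the 4 motifs was within 50 bp of the summit in 16 genes (41.0%, beside 65.4%), among them SKA3, CENPT and ZWILCH, 3 of the 5 strongest peaks.

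**Figure D4:**
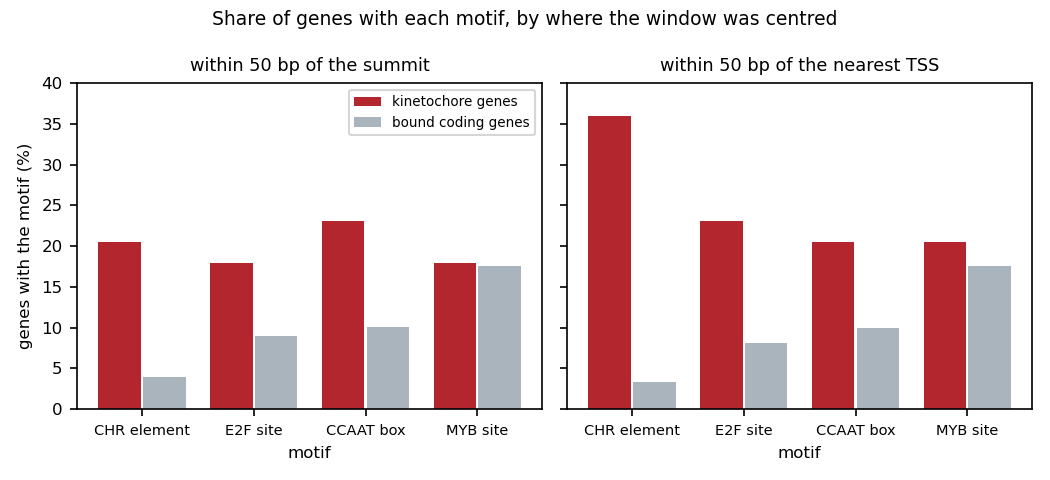
Bars give the percent of the 39 genes (red) and of 11941 bound protein-coding genes (grey) with each motif within 50 bp of the peak summit (left) or the TSS nearest to it (right). The CHR element stands at 20.5% against 3.93% on the left and 35.9% against 3.32% on the right, while the MYB site stands at 17.9% against 17.6% and 20.5% against 17.6%.

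**Figure D5:**
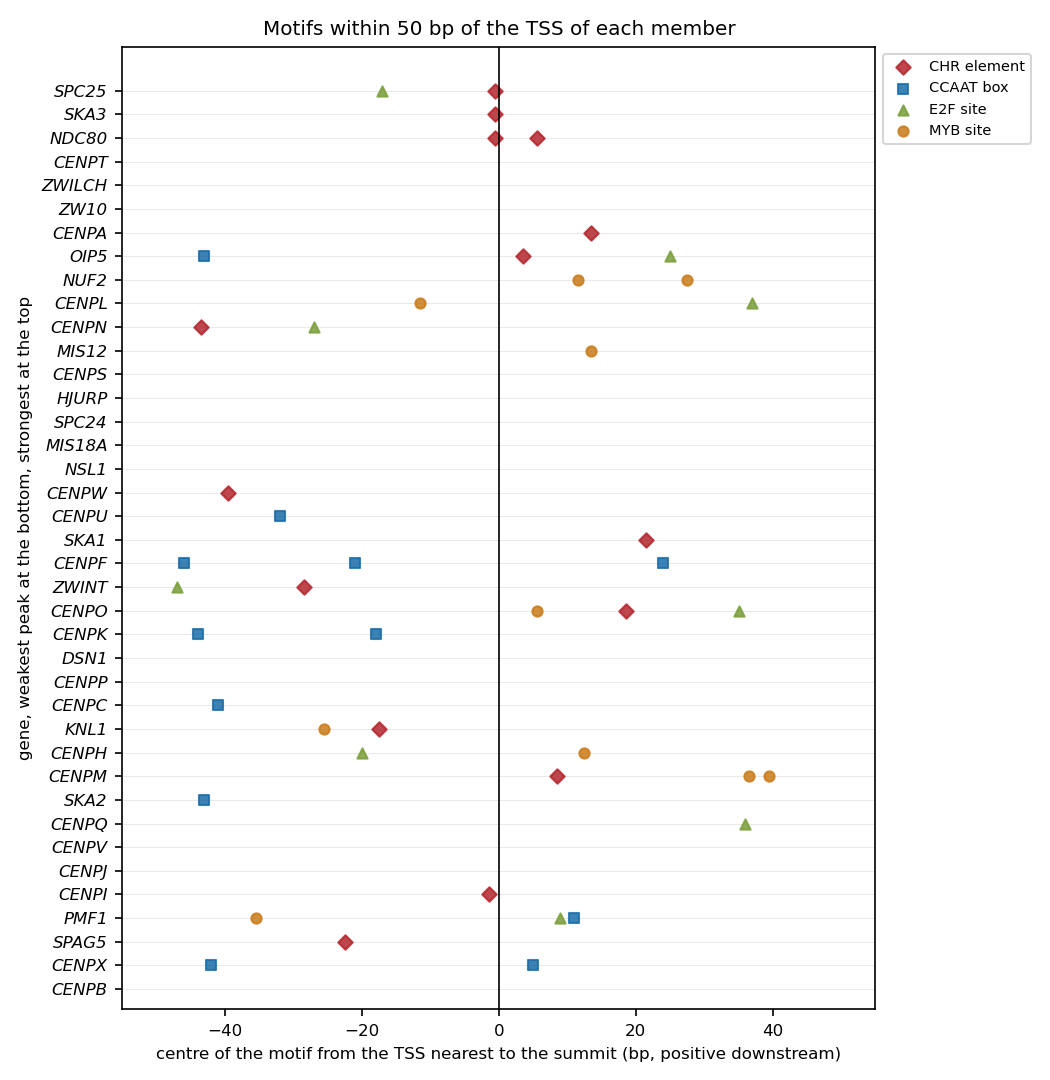
Each mark is a motif by the distance of its centre from the TSS nearest to the summit (bp, positive downstream), with 1 line per gene and the strongest peak at the top. The top 3 genes, SPC25, SKA3 and NDC80, each have a CHR element on the TSS, and genes without it are found from CENPT (26.1-fold) down to CENPB (5.39-fold).

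A single promoter peak was found at 23 of 39 genes (59.0%, beside 53.1% of bound coding genes), and 3 of the other 16 had a second one with a fold enrichment of at least 5 (7.69% of the 39, beside 14.9% of bound coding genes). CENPT had such peaks at 2 further places among its many TSSs, one of 20.4-fold (chromosome 16, 67867352 to 67868118, 172 fragments) that was at no other gene's promoter and one of 10.3-fold that was also at THAP11. CENPA had the peak of 8.45-fold described above and CENPX one of 6.76-fold (interval 4.66 to 9.51) that was also at LRRC45. That CENPX peak (chromosome 17, 79980494 to 79980833) covered the CENPX TSS at 79980794. Its interval overlapped that of the best CENPX peak, so which of them was stronger was not resolved. Inside the gene but outside its promoter windows, 22 genes (56.4%) had at least 1 peak, beside 54.0% of bound coding genes, and the median was 1 in both sets. The most were 19 at CENPF, 15 at HJURP, 14 at SKA2 and 12 at SPC24. Such a peak was stronger than the best promoter peak in 0 of the 39 genes, beside 8.92% of bound coding genes, and reached a fold enrichment of 5 in 3 genes (7.69%, beside 18.7%). The median gene length was 26.6 kb for the 39 genes and 33.6 kb for bound coding genes, and its part in these shares was not tested. HJURP had one of 5.39, CENPO one of 5.46 at the ADCY3 promoter, and SPC24 had 5, the strongest of them 13.7-fold (chromosome 19, 11252718 to 11254909, interval 10.6 to 17.5), an interval that overlaps that of its promoter peak.

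Another 25 genes of the centromere, the kinetochore and its checkpoint were set beside the 39. All 25 had a promoter peak, all 25 had one of at least 5-fold and 22 had one of at least 10-fold (88.0%), against 59.4%, 49.6% and 23.1% of protein-coding genes. Their best peaks had a median of 14.7-fold (range 6.98 to 51.4). At the high end were CLASP1, a microtubule plus-end protein (51.4-fold, interval 45.1 to 58.4), BOD1, a regulator of chromosome biorientation (27.6-fold), and BUB1B, the checkpoint protein BUBR1 (26.1-fold). Close partners of the 39 genes included KNTC1, the third RZZ subunit (15.0-fold), CENPE, a kinetochore motor (12.7-fold), and ITGB3BP, also known as CENPR (11.7-fold). At the low end were RBBP7 (6.98-fold) and ERCC6L (7.19-fold).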

How the data were processed

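MYBL2 ChIP and input libraries of A673 cells, 1 each, were sequenced as 100 bp single-end reads. Per the methods and processing notes, the authors aligned reads to hg19 with Bowtie2 2.1.10 and called narrow peaks with MACS2 2.0.10 against the input. What a further cleaning step removed is not given in the sources used here. The deposited columns used were fold enrichment (a linear ratio) and −log10 p and −log10 q values; the deposited score was not used.

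Best promoter peaks, GENCODE 44 TSSs (lifted to GRCh37) and motifs were computed with pandas 2.3.3, SciPy 1.17.1 and pysam 0.24.0. Fold enrichment was read as (pileup + 1) / (background + 1) and p as an upper Poisson tail, and a whole-number pileup solved both within 0.001 in −log10 p for all 66954 peaks. These steps were checked on simulated data. Genes, lists, motifs and alternatives were chosen with earlier results of these data known, and no list was tested. By the naming rule every gene is given by role, in full for the 3 strongest and 3 weakest peaks of each role group and for each peak shared with another coding gene. Of the sequences at CHR and E2F sites, those printed were chosen after their values were seen, as were the start-site elements and CCAAT boxes. Antibody specificity, expression and input peaks were not analysed here. Some genes are not reported here.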

Additional observations from a re-analysis of the deposited data

How the results depend on the processing

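No paired analysis was possible because ChIP and input were a single library each. Counts of bound genes and the median fold enrichment kept within 1.5 times their value under stricter peaks, other promoter windows, summit placement and other TSS sets. With only the outermost TSS, 38 of the 39 genes were bound (NUF2 was not), 24 of the other 25, and the median fold enrichment was 12.5. The median distance to the TSS rose to 75 bp with the outermost TSS and to 44 bp with the canonical TSS (added after seeing the data), as fewer TSSs dictate. Motif counts depended on the window. Within 100 bp of the summit the CHR element was in 17 genes, the E2F site in 16, the CCAAT box in 15 and the MYB site in 12, as a longer window allows, beside 7.48%, 16.3%, 20.2% and 31.4% of bound coding genes. Around the TSS the CHR element was in 14. Counting error of the ChIP pileup was the only error that 1 library allowed to be measured. Error of the input background and spread between cultures were not.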
